A study of Mus musculus with 5 samples.

Results

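The genes examined were 5 members of the plasminogen activator system, taken by name: Plau, Plaur, Plat, Serpine2 and Serpinb2, out of 21938 protein-coding genes of the mouse annotation. Around every annotated transcription start site (TSS) of these genes, all JunB and H3K27ac peaks within 50 kb were collected and split at 3 kb. JunB peaks of different libraries that overlapped or touched were merged into 1 site, which gave 14 JunB sites of 18879 in the whole data set, and 23 H3K27ac peaks were found in the same windows. The rule names the genes and uses no peak value, but they were picked with earlier results of these data known.

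The peaks came from CUT&RUN-seq: inside permeabilised cells, a nuclease is brought by an antibody to the protein of interest, cuts the DNA next to it, and the fragments set free are sequenced. The cells were freshly isolated muscle stem cells (MuSCs) of mouse muscle. The study sorted MuSCs of young and aged mice by surface markers, but the labels do not give the sort behind each library. There were 5 libraries. JunB, a subunit of the AP-1 transcription factor, was mapped in 3 libraries labelled young and 1 library labelled aged, with the same antibody. H3K27ac, an acetylated histone residue found at promoters and enhancers in use, was mapped in 1 library whose label gives no age. The sources used here give no age in months, number of pooled animals or transgene for these libraries. The peak names of young replicate 1 carry the tag gfp, which those of the other libraries lack. The study sorted GFP+ MuSCs from reporter mice (Pax7CreERT2 with R26Yfp) for other experiments, and whether this library came from such mice is not stated. The main counts of sites, peaks and members are therefore also given without it. Means and ratios of fold enrichment, comparisons among sites shared by all libraries, motif counts and background shares include it and were not recomputed. The text of the series speaks of treated mice, while the sample labels name age, and the labels were followed.

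Urokinase (Plau) and tissue plasminogen activator (Plat) are the proteases that cut plasminogen into plasmin, which digests fibrin and other proteins around the cell. The urokinase receptor (Plaur) holds urokinase at the cell surface. Protease nexin-1 (Serpine2) and PAI-2 (Serpinb2) are serpins that block plasminogen activators. In skeletal muscle the system is known for the clearance of fibrin and the migration of cells after injury. AP-1 dimers that contain JunB bind the sequence TGACTCA, which reads TGAGTCA on the opposite strand.

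The DNA at the main sites is shown first, since the positions and strengths below refer to it. All sequences are the plus strand of GRCm38.p6, the assembly that mm10 names. In the first set, capitals mark a copy of TGACTCA on either strand inside a JunB site, with 30 bases to each side. The set covers the site far upstream of Plau, the intronic site of Plat, both Serpine2 sites and the site downstream of Plaur.
Plau, 30765 bp upstream (chr14:20805538-20805604): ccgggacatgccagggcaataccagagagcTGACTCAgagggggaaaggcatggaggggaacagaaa
Plat, 7812 bp downstream (chr8:22765849-22765915): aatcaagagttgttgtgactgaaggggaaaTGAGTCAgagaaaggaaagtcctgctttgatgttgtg
Serpine2, 1592 bp upstream of an internal TSS (chr1:79822907-79822973): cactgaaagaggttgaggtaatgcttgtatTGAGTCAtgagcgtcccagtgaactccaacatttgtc
Serpine2, 888 bp upstream of a TSS (chr1:79859935-79860001): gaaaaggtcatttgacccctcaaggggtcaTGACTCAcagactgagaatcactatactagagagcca
Plaur, 17777 bp downstream (chr7:24480908-24480974): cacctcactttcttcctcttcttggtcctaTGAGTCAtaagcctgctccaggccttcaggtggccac

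A second set shows sites without TGACTCA. For the sites near Plau and behind Plat, which were found in all 4 JunB libraries, capitals run from the first to the last summit of the libraries, the summit being the highest point of a peak. For the Plat promoter, capitals mark TGACATCA, a variant of the CRE sequence that AP-1 and ATF proteins bind. This variant was searched after the sequence had been seen.
Plau, 4991 bp upstream (chr14:20831427-20831518): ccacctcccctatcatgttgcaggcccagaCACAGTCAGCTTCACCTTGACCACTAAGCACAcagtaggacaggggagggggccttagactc
Plat, 26324 bp downstream (chr8:22784457-22784594): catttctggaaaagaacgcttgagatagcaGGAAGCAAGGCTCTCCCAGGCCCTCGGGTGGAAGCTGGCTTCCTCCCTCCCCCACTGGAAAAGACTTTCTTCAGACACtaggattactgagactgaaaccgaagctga
Plat promoter (chr8:22757521-22757588): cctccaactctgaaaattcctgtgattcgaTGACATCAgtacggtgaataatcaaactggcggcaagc

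The libraries differed in how many peaks they list, and this bears on every count below. The young lists hold 9534, 4884 and 3863 peaks, the aged list 14123 and the H3K27ac list 39865. Listed peaks went down to a −log10 p of 3.01 for young replicate 1 and likewise for the aged library, but stopped at 5.33 and 5.22 for young replicates 2 and 3, so weak peaks could enter the first pair of lists and not the second. The lists hold no read counts, and the depth behind a peak is unknown. As a check of the labelled cell type, 5 of 8 MuSC marker genes had an H3K27ac peak within 3 kb of a TSS, while Pax7, Myf5 and Calcr had none. Such a peak was also found at 1 of 4 myofibre, 1 of 4 fibro-adipogenic progenitor, 2 of 4 endothelial and 0 of 4 blood markers, and at 49.8% of protein-coding genes, so these counts do not tell the cell types apart. JunB peaks within 3 kb were listed at 2, 3 and 1 of the 8 MuSC markers in young replicates 1 to 3 and at 5 with the aged list. Of all protein-coding genes, 11.0, 7.74 and 5.91% had one in the young lists and 23.9% in the aged list. Over all JunB libraries, a peak in that window was found at 2 of 4 fibro-adipogenic progenitor and 1 of 4 endothelial markers. It was found at 1 of 4 blood and 0 of 4 myofibre markers, beside 25.8% of protein-coding genes. These were Pdgfra and Col1a1 (aged library alone), Tek (young replicate 1 and aged library) and Cd68 (all 4 JunB libraries). The part of other cell types in the results below was not tested.

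JunB sites lay around 4 of the 5 genes: 5 around Plat, 4 around Plau, 3 around Plaur, 2 around Serpine2 and 0 around Serpinb2. The order of the genes depended on the window: within 20 kb Plaur had 3 sites and Plat 2, within 100 kb Plaur had 7 and Plat 6, and among sites nearest to a member Plat, Plaur and Serpine2 had 2 each. Over all protein-coding genes the median was 1 site within 50 kb (quartiles 0 to 2), against a median of 3 for the 5 members. At least 4 sites, as at Plau and Plat, were found at 11.0% of protein-coding genes, and at least 5, as at Plat, at 5.35%. No JunB site, as at Serpinb2, was the case at 35.5%. The 4 bound genes are set against 64.5% of protein-coding genes with a JunB peak in that window in any library. The sequence searched differed, since the windows of Serpine2 and Serpinb2 spanned 140877 and 112522 bp because of their spread-out start sites, and those of the other genes 100017 to 100069 bp.

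**Figure D1:**
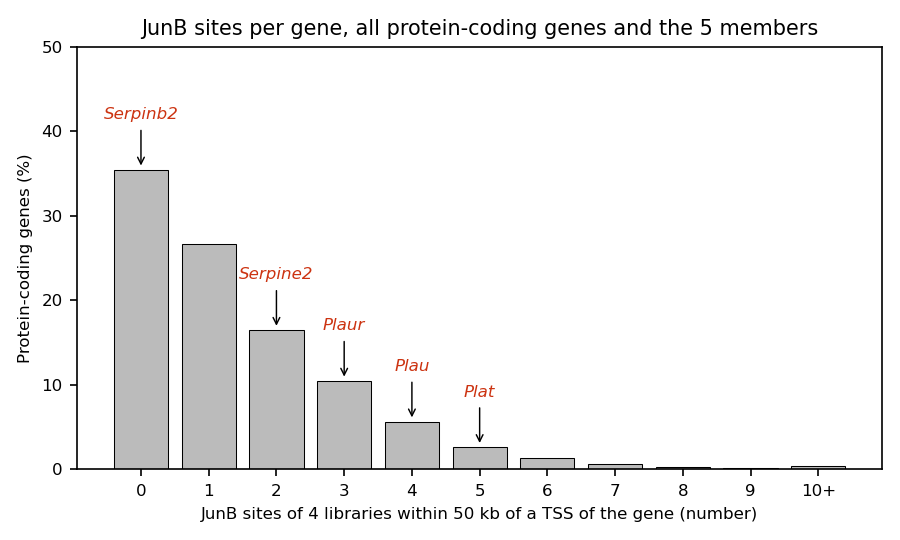
Number of JunB sites (peaks of the 4 JunB libraries merged) within 50 kb of a TSS on the x axis, and percent of the 21938 protein-coding genes with that number on the y axis (bars). Arrows mark the members: Serpinb2 at 0, Serpine2 at 2, Plaur at 3, Plau at 4 and Plat at 5 sites, all but Serpinb2 above the median of 1.

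Of the 14 sites, 5 lay within 3 kb of a TSS and 9 at 3 to 50 kb. Without young replicate 1 there were 12 sites. Peaks of all 4 JunB libraries made up 4 sites, peaks of 3 libraries 2 sites (8.51% of all sites), of 2 libraries 4 sites (12.7%) and of 1 library 4 sites. Among all 18879 sites, 13.1% were found in 4 libraries and 65.8% in 1 library. The 4 sites shared by all libraries were the pair at Plau 30765 and 4991 bp upstream and the pair at Plat 7812 and 26324 bp downstream, all beyond 3 kb. None of the sites within 3 kb was found in all 4 libraries, and no member had a peak in that window in every library (4.36% of protein-coding genes). A position near a gene does not assign a site to it, and for 5 of the 14 sites the nearest protein-coding TSS belonged to another gene.

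**Figure D2:**
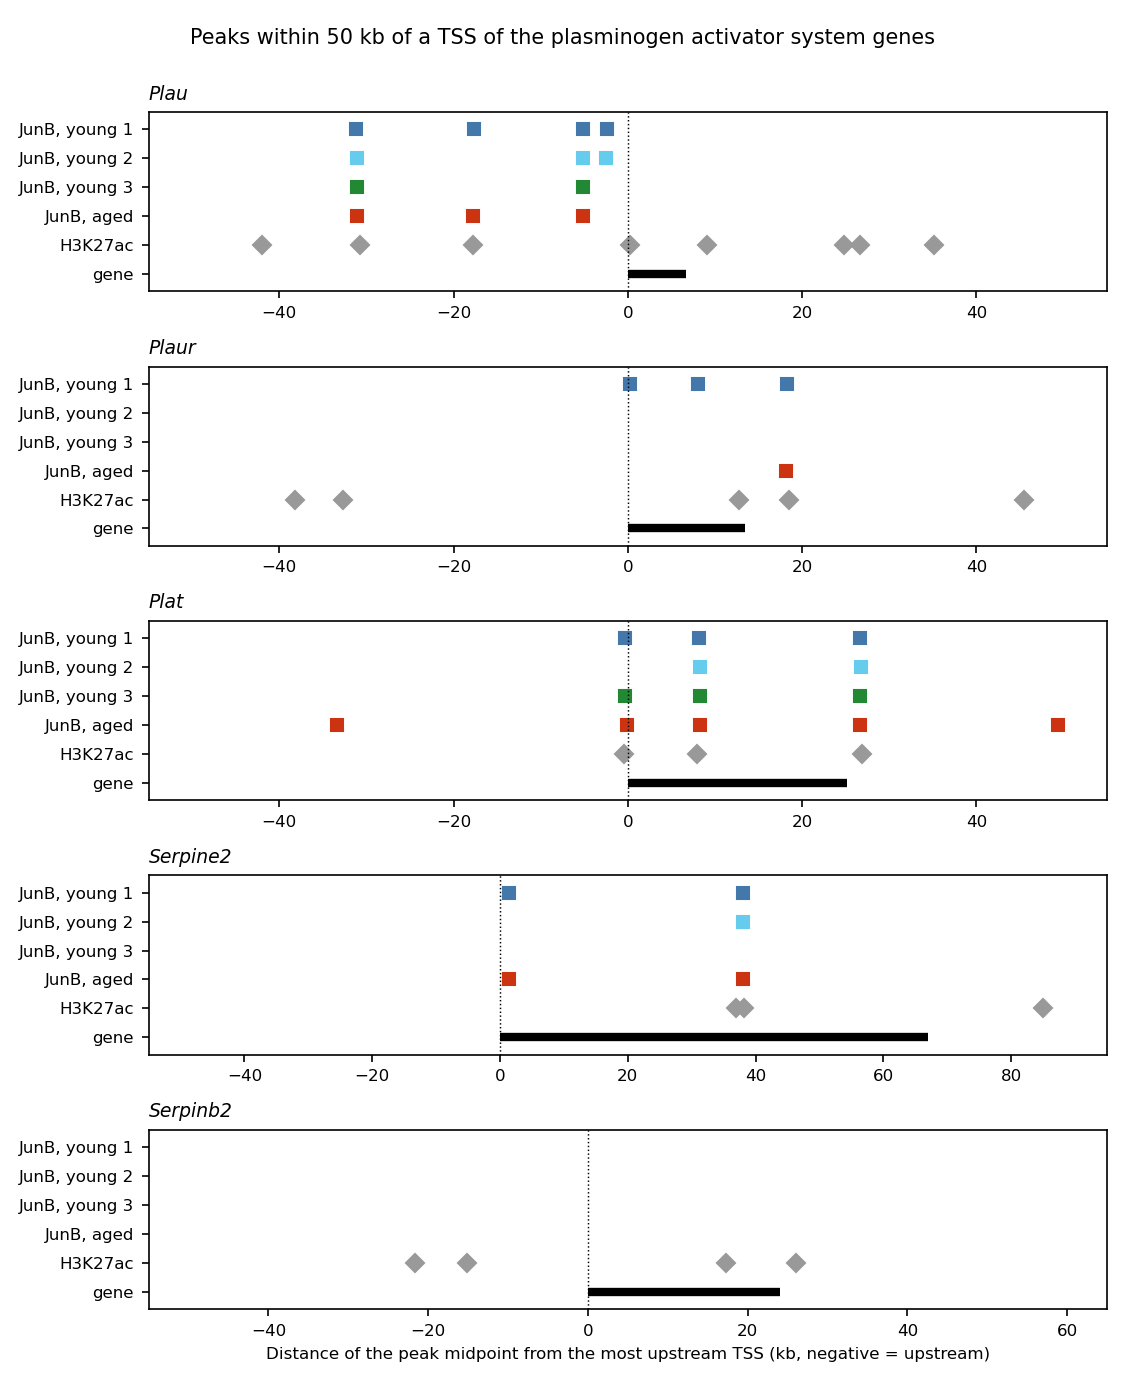
Position of every JunB peak (squares, one row per library) and H3K27ac peak (diamonds) within 50 kb of a TSS of each gene. The x axis gives the distance of the peak midpoint from the most upstream TSS in kb, marks are not drawn to the width of a peak, and the black bar is the gene. Columns of squares in all 4 JunB rows appear at 2 places of Plau and 2 of Plat, and the JunB rows of Serpinb2 are empty.

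Plau (ENSMUSG00000021822.3, chr14:20836660-20843385, plus strand) carried 4 JunB sites, all upstream of the gene in intergenic sequence. The farthest, at chr14:20805143-20805895, was a peak in every library, with a fold enrichment at the summit over the local background of 13.9, 16.4 and 16.1 in young replicates 1 to 3. The aged value was 9.05. It was read at a different place, since the aged summit lay at 20805348 and the young summits at 20805662 to 20805734. The 4 summits spanned 386 bp. In each library this peak ranked high by p, within the strongest 3.75, 4.69 and 4.92% of the young lists and the strongest 4.14% of the aged list. All 753 bp of it lay in an H3K27ac peak, and its TGACTCA, shown above, was covered by the peak of all 4 libraries. The TSS of Camk2g, a calcium/calmodulin-dependent kinase subunit, was nearer to this site (11055 bp) than that of Plau.

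The second site shared by all libraries, at chr14:20831272-20831669, ended 4991 bp before the Plau TSS. Its fold enrichment was 11.8, 11.2 and 11.5 in young replicates 1 to 3, and the aged library had 6.53. The young values, 11.5 ± 0.289 (SD, n = 3), lay close together, and the aged value was below all of them. The 4 summits fell within 31 bp. No H3K27ac peak overlapped this site, the nearest being 4943 bp away over the Plau TSS itself, and no TGACTCA was found in its 398 bp.

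Weaker sites made up the rest at Plau. At chr14:20834062-20834369, 2291 bp upstream of the TSS, the fold enrichment was 4.83 in young replicate 1 and 5.50 in young replicate 2, with no peak in young replicate 3 or the aged library and none of H3K27ac. This was the only JunB site within 3 kb of the Plau TSS. At chr14:20818769-20819200, 17460 bp upstream, young replicate 1 had 3.74 and the aged library 5.60, and the whole site lay in an H3K27ac peak. The TSS of Plau was spanned by an H3K27ac peak of 551 bp (fold enrichment 2.97), with no JunB site on it. Another 4 H3K27ac peaks lay 8779 to 34295 bp downstream and 1 lay 41797 bp upstream, none with a JunB site.

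Plat (ENSMUSG00000031538.6, chr8:22757727-22782844, plus strand) had the most sites and was the only member with a JunB site across its TSS, at chr8:22757256-22757877. The fold enrichment there was 8.48 in young replicate 1, 6.99 in young replicate 3 and 4.84 for the aged peak, with no peak in young replicate 2. The peak of young replicate 1 ended 142 bp and that of young replicate 3 157 bp before the TSS, and the aged peak alone reached over it. An H3K27ac peak covered 291 of the 622 bp of the site. The site held no TGACTCA. It held 1 copy of TGACATCA, shown above, 169 bp upstream of the TSS and inside the peak of each of the 3 libraries. Within 200 bp of the strongest summit, this variant was found at 3.63% of all JunB sites and in 1.88% of flanking windows of 401 bp centred 1000 bp to each side.

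Inside the gene, an intronic site at chr8:22765607-22766208 was found in all 4 libraries. Its fold enrichment was 5.93, 7.73 and 8.19 in young replicates 1 to 3, against 5.90 in the aged library, so that the aged value lay beside the lowest young value. The site was wholly within an H3K27ac peak of 1813 bp. Its copy of TGACTCA lay 154 bp from the nearest summit and was covered by the peaks of young replicates 1 and 3, not by those of young replicate 2 and the aged library, which began beyond it.

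The highest fold enrichments of young replicate 1 and of the aged library around the 5 genes lay behind Plat, at chr8:22784119-22784709, in intergenic sequence past its last exon. The values were 17.5, 14.3 and 12.8 in young replicates 1 to 3, and 11.1 in the aged library. The peaks ranked among the strongest 2.65, 11.5 and 16.7% of the young lists and the strongest 2.71% of the aged list. In young replicates 2 and 3 the far Plau site was higher. H3K27ac covered 553 of the 591 bp of the site, and no TGACTCA was present in it. Ap3m2, which codes for a subunit of an adaptor complex of vesicle transport, had a TSS 20895 bp from this site, nearer than the Plat TSS at 26324 bp.

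The 2 remaining sites around Plat were aged peaks without a young counterpart. One lay 33283 bp upstream with a fold enrichment of 3.63, nearer to Ikbkb, the IKK-beta kinase gene (17611 bp), and ranked at 94.0% of the aged list. The other lay 48931 bp downstream with a fold enrichment of 5.07, in an intron of 1700041G16Rik and 1104 bp from the Ap3m2 TSS. Neither overlapped an H3K27ac peak, the nearest to the latter being 473 bp away.

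Plaur (ENSMUSG00000046223.10, chr7:24462484-24475968, plus strand) had 3 JunB sites, all of them in young replicate 1. The one near its start, chr7:24462544-24462959, began 44 bp downstream of the nearest TSS and overlapped coding sequence of Plaur. Its summit lay at 24462881. It was among the weakest peaks of that list, with a fold enrichment of 3.31 and a −log10 p of 3.93, and ranked 9318 of 9534. Its −log10 p is under the lowest value listed in young replicates 2 and 3. The second site, 7798 bp downstream in an intron, had a fold enrichment of 4.11. Without young replicate 1, Plaur kept 1 site instead of 3.

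That remaining site, at chr7:24480277-24481058, lay behind Plaur, 17777 bp downstream of its TSS and 965 bp from the TSS of Cadm4, a cell adhesion gene. Its fold enrichment was 11.1 for young replicate 1 against 5.63 for the aged library. H3K27ac covered 693 of its 782 bp. It held 2 copies of TGACTCA, 86 and 183 bp from the nearest summit, and the first of them is shown above. No H3K27ac peak lay within 3 kb of a Plaur TSS, the nearest being 12386 bp away.

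The Plaur promoter held the motif without a peak. In the RefSeq promoter window (GRCm38.p6, 250 bases before to 50 after the start, chr7:24462233-24462532), TGACTCA lay 63 bp upstream of the RefSeq start. It is in capitals here, with bases to each side that stop short of the start.
Plaur promoter (chr7:24462384-24462480): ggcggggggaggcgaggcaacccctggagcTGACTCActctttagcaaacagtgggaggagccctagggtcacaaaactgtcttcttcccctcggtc
No JunB or H3K27ac peak overlapped this window, and the nearest JunB peak, the weak one of young replicate 1 described above, began 124 bp beyond the motif. Of 32851 RefSeq promoter windows, 5.20% held TGACTCA on either strand. RefSeq windows were matched for Plaur, Serpine2 and Serpinb2, and the windows of Serpine2 (1) and Serpinb2 (2) held no copy. For Plau and Plat no RefSeq window was available, so their promoters were not searched in this way.

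Serpine2 (ENSMUSG00000026249.10, chr1:79794197-79861180, minus strand) had 2 JunB sites, both in its introns and both within 3 kb of an annotated TSS. The gene has 5 TSSs spread between positions 79820304 and 79861180. One site, at chr1:79822914-79823271, lay 1592 bp upstream of an internal TSS and 37909 bp from the outermost TSS of a protein-coding transcript. Its fold enrichment was 7.61 for young replicate 1, 7.76 for young replicate 2 and 5.84 for the aged library, while young replicate 3 had no peak. It lay wholly inside an H3K27ac peak that ranked in the strongest 2.55% of the H3K27ac list, the highest rank among the 23. Its TGACTCA was 163 bp from the nearest summit. The peaks of young replicates 1 and 2 covered this copy, while the aged peak began beyond it. The other site, at chr1:79859584-79860026, was 888 bp upstream of a TSS and 1154 bp from the outermost one. It had a fold enrichment of 4.15 for young replicate 1 against 5.19 for the aged library, and its motif was covered by the aged peak alone. No H3K27ac peak was near it, the closest being 34797 bp away.

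Serpinb2 (ENSMUSG00000062345.10, chr1:107511423-107535478, plus strand) was the member without JunB peaks. The nearest was 107326, 714474 and 1109919 bp from a TSS in young replicates 1 to 3, and the nearest aged peak was 751577 bp away. The region was not empty of H3K27ac, with peaks 21155 and 15018 bp upstream and 4567 and 13082 bp downstream of the nearest TSS, none within 3 kb. From the nearest TSS of a protein-coding transcript, the downstream pair lay 17014 and 25529 bp away. The strongest by p, 13082 bp downstream, had a fold enrichment of 4.48 and ranked at 12.2% of the H3K27ac list.

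**Figure D3:**
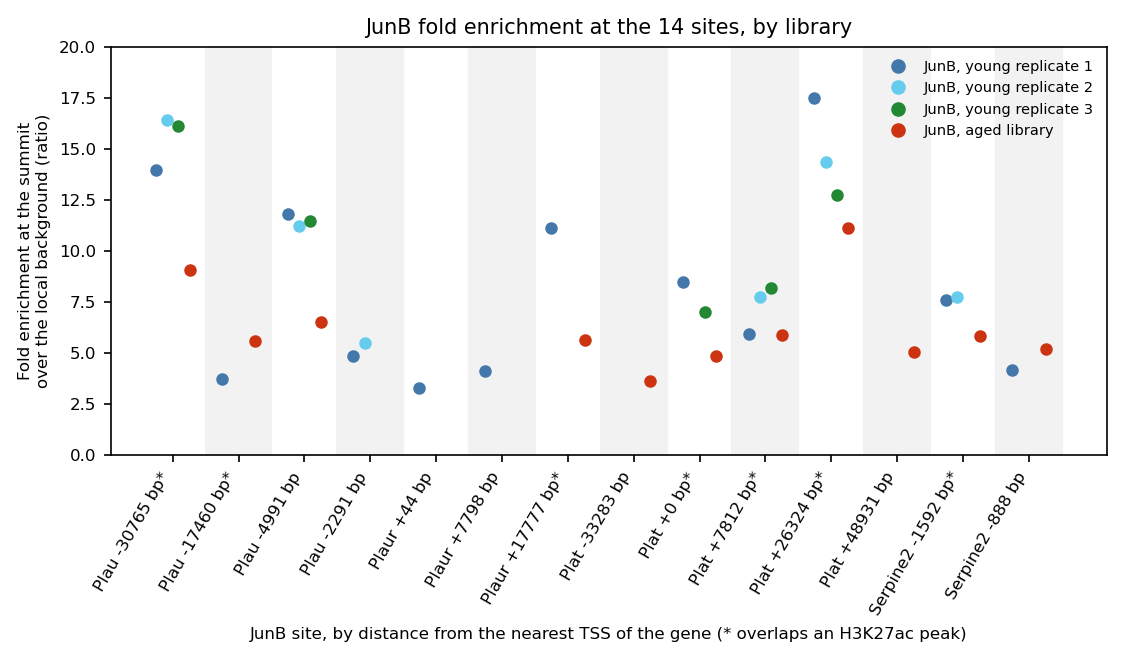
Fold enrichment at the summit over the local background (ratio, y axis) at each of the 14 JunB sites (x axis, named by gene and distance in bp from its nearest TSS, negative upstream), one point per library that lists a peak. An asterisk marks sites that overlap an H3K27ac peak. Points of all 4 colours stand at 4 sites, and at each of these the aged point is the lowest, from 5.90 at Plat to 11.1 behind Plat.

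H3K27ac overlapped 7 of the 14 JunB sites, beside 42.6% of all JunB sites. Away from the TSS it overlapped 5 of 9 sites, against 36.4% of all sites at 3 to 50 kb from a protein-coding TSS. Within 3 kb it overlapped 2 of 5, against 65.7%. The split differs between the 2 sides: member sites were split by the member's own TSS, all sites by that of any protein-coding gene. By the latter, the sites 965 bp from the Cadm4 TSS (in H3K27ac) and 1104 bp from the Ap3m2 TSS (not in it) would count as within 3 kb. Of the 4 sites shared by all libraries 3 were in H3K27ac peaks (69.9% of all such sites), the exception being the site 4991 bp upstream of Plau. Seen from the mark, 7 of the 23 H3K27ac peaks around the genes held a JunB site and 16 did not, against 20.1% of H3K27ac peaks overall that held one. At Plat all 3 H3K27ac peaks held a JunB site, at Plau 2 of 8, at Plaur 1 of 5, at Serpine2 1 of 3 and at Serpinb2 0 of 4. Position does not assign these peaks to the members either. For all 5 peaks around Plaur the nearest protein-coding TSS was that of Smg9, Irgc1, Cadm4 or Zfp428. The peak 43849 bp downstream of Serpine2 spanned the Mrpl44 TSS, and that 41797 bp upstream of Plau lay 285 bp from the Camk2g TSS.

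Peaks near the start sites were counted by library. At least 1 JunB peak within 3 kb of a TSS was found for 4 of the 5 members in young replicate 1 (11.0% of protein-coding genes), 2 in young replicate 2 (7.74%), 1 in young replicate 3 (5.91%) and 2 for the aged library (23.9%). Over all JunB libraries the count was 4 of 5, beside 25.8% of protein-coding genes. Without young replicate 1 it was 3 of 5, and the share of all genes was not recomputed for that case. The 4 members in young replicate 1 include Plaur, whose peak is the weak one described above. H3K27ac peaks within 3 kb were found for Plau, Plat and Serpine2, which is 3 of 5 beside 49.8% of protein-coding genes, and within 50 kb for all 5 (76.6%). Serpine2 counts here through peaks upstream of an internal TSS. With only the most upstream protein-coding TSS of each gene the count was 2. With a promoter window of 1 kb it was 2, and with 5 kb it was 4. The member added at 5 kb was Serpinb2, by a peak 17014 bp from its nearest TSS of a protein-coding transcript.

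The comparison of ages asks whether JunB lies differently around these genes in MuSCs of young and aged mice. Any peak within 50 kb was found for 4, 3 and 2 members in young replicates 1 to 3 (40.4, 27.5 and 23.4% of protein-coding genes) and for 4 members in the aged list (58.4%). For Plau and Plat this held in all 4 JunB libraries (19.0%). In number of peaks, the young libraries listed 12, 6 and 5 peaks, on average 7.67 ± 3.79 (SD, n = 3), while 11 aged peaks were listed. The aged count was 3.33 above the young mean, less than the young SD, and inside the young range. Without young replicate 1 the young counts were 6 and 5 and the difference 5.5. No test was made, since the spread among aged libraries is unknown. The direction of this difference turned with the number of peaks taken. Cutting every list to its 3863 strongest peaks left 8, 6 and 5 young peaks and 4 aged peaks around the genes. The aged count was then 2.33 below the young mean. By site, 9 of 14 had both young and aged peaks, 3 had young peaks alone and 2 an aged peak alone, beside 25.8% and 45.0% of all JunB sites. The 3 sites without an aged peak were that 2291 bp upstream of Plau and the first pair at Plaur.

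At the 4 sites of all libraries the fold enrichment was lower in the aged library than in every young library. The same held at 62.7% of the 2468 sites of the data set found in all 4 libraries. The young mean at the far Plau site was 15.5 ± 1.36 (SD, n = 3) and the aged value was 0.584 of it. There the aged summit lay apart from the young ones, so this ratio does not compare 1 position. At the nearer Plau site the aged value was 0.567 of the young mean. At the intronic Plat site the young mean was 7.28 ± 1.20 (SD, n = 3), with an aged to young ratio of 0.810. Behind Plat it was 14.9 ± 2.42 (SD, n = 3), with a ratio of 0.747. Over all 2468 sites the median ratio was 0.772, with quartiles of 0.632 and 0.936. The Plat ratios thus lay between these quartiles and both Plau ratios below the lower one. Fold enrichment is relative to each library's own background, and the part of library depth in these ratios was not tested.

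Placed among the 2468 shared sites of the same library, the site behind Plat exceeded 93.8, 86.6 and 82.1% of them in young replicates 1 to 3, and 90.9% in the aged library. The far Plau site exceeded 83.9, 92.9 and 93.9% in young replicates 1 to 3, but 75.6% in the aged library, with its summit elsewhere. The nearer Plau site exceeded 73.5, 69.5 and 74.4% in young replicates 1 to 3, but 37.0% in the aged library, where it was below the median. The intronic Plat site was below the median in every library, at 15.1, 27.9, 37.7 and 26.3%. By this measure the place of the Plat sites in the aged library was within their young range, and that of both Plau sites was below it.

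**Figure D4:**
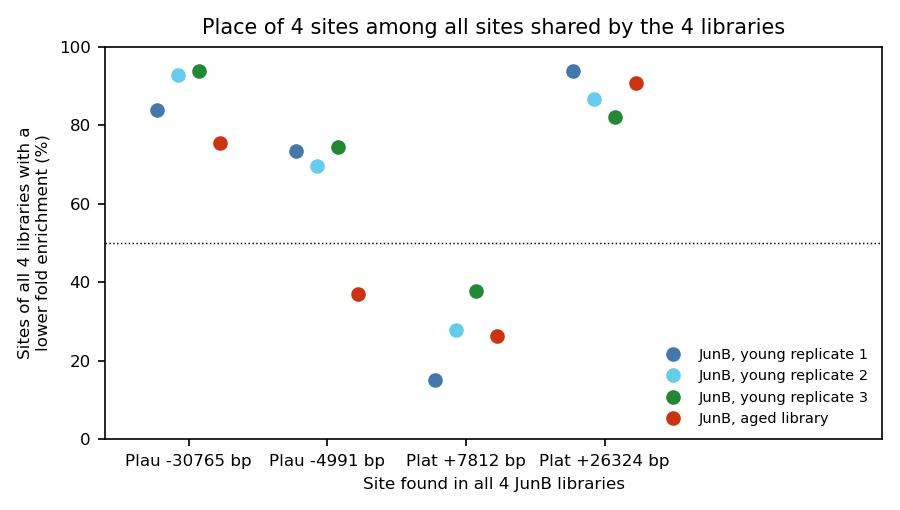
Percent of the 2468 sites found in all 4 JunB libraries that have a lower fold enrichment in the same library (y axis) for the 4 sites of Plau and Plat (x axis), one point per library, with the dotted line at the median. The aged points of the Plau sites, at 75.6 and 37.0%, are below the young points, and those of the Plat sites are among them.

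The motif TGACTCA was present in 7 of the 14 sites, in 8 copies, each 86 to 188 bp from the nearest summit. Within 200 bp of the strongest summit it was present at 8 sites, beside 25.3% of all JunB sites and 6.33% of flanking windows. The difference of 1 is the weak site at the start of Plaur, where a copy lay 87 bp outside the site. Copies were found at all 3 Plaur sites on this count, at both Serpine2 sites, at 2 of 5 Plat sites and at 1 of 4 Plau sites. The CRE sequence TGACGTCA was in none of the 14, beside 1.59% of all sites and 0.368% of flanking windows.

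Of 12 other genes of the plasminogen system, 8 had a JunB peak within 3 kb of a TSS in some library (25.8% of protein-coding genes, as above) and 8 an H3K27ac peak (49.8%). By library, 6, 3 and 3 of them had such a JunB peak in young replicates 1 to 3, and 8 had an aged one. The shares of all protein-coding genes were 11.0, 7.74 and 5.91% in the young lists and 23.9% in the aged list. Peaks in at least 3 JunB libraries were found at 5 (7.17% of protein-coding genes). Lrp1, the endocytic receptor that clears complexes of protease and serpin, was the one with peaks in all 4, with fold enrichments of 10.3, 10.4 and 7.56 in young replicates 1 to 3 against 5.52 in the aged library. Serpini1, the neuroserpin gene, had 4.91 and 5.01 in young replicates 1 and 2, and an aged value of 5.16. Plgrkt, which codes for a plasminogen receptor, had 7.15, 6.17 and 5.42 in the same libraries. S100a10, whose product binds plasminogen as a partner of annexin A2, had 4.96 and 5.10 in young replicates 1 and 3, and an aged value of 4.30. Eno1, an enolase that can also bind plasminogen, had 6.87 and 4.97 in young replicates 1 and 3, and an aged value of 6.94.

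Read as present or absent within 3 kb over the 5 libraries, the pattern of Plat was shared by S100a10 and Eno1, and that of Serpine2 by Plgrkt and Serpini1. Serpinb2 shared its empty pattern with 4 genes, namely Plg, Serpinf2, Serpina5 and Cpb2. None of the 12 had the pattern of Plau or of Plaur. Plg codes for plasminogen itself.

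**Figure D5:**
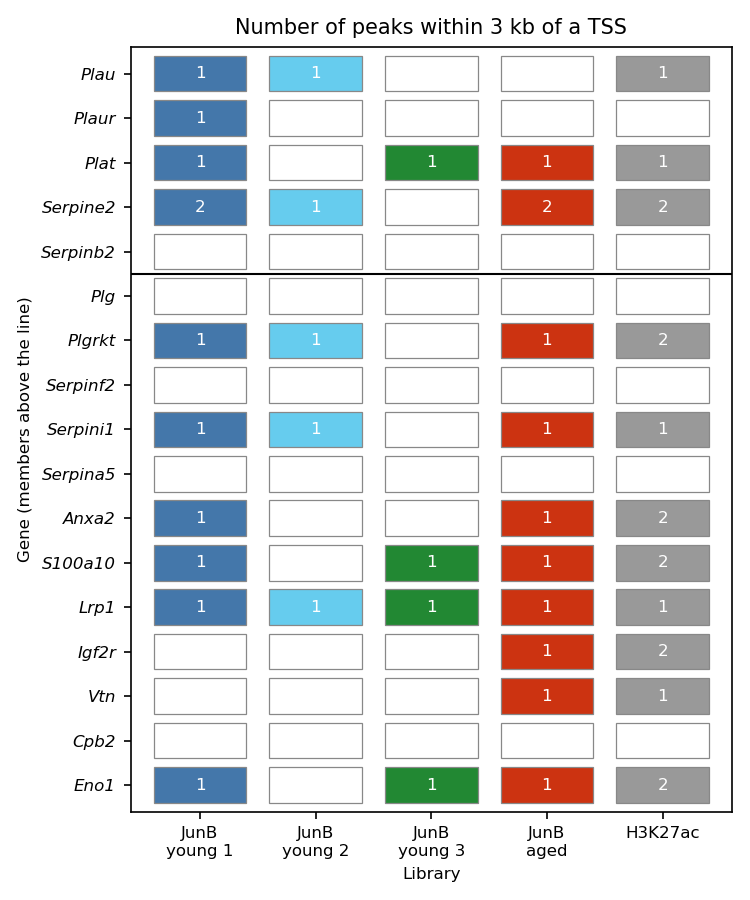
Number of peaks within 3 kb of a TSS (figures in the boxes, empty boxes are 0) for the 5 members above the line and the 12 other plasminogen system genes below it (y axis), by library (x axis). Lrp1 alone has a box filled in all 4 JunB columns, and no member does.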

How the data were processed

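CUT&RUN-seq peak lists of MuSCs were analysed, 1 per library. Per the submitters' processing notes, the authors used Bowtie2 for alignment to mm10 and MACS2 for peak calling, library by library, with versions not given in the sources used here. The deposited lists give each peak's position, its summit as an offset from the peak start, its fold enrichment (a ratio of signal to local background), the −log10 of its p and of its q, and a score (not used). They hold no counts.

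Peaks within 50 kb of any TSS in GENCODE M21 were taken, with distance measured from the nearer peak edge and 0 where the peak spans the TSS. JunB peaks that overlapped or touched were merged into sites, and overlap with H3K27ac needed 1 bp. Background shares cover the autosomes, X and Y. Motifs were read from GRCm38.p6, where 32851 of 32851 RefSeq promoter windows were identical to the genome at their coordinates. The members and lists were chosen with earlier results of these data known. All members were named, and of the other plasminogen genes those with peaks within 3 kb in at least 3 JunB libraries or with a member's pattern. One gene of that list is not reported here. No test was made, since 1 aged library gives no spread. Alternatives changed peak thresholds, windows, TSSs, merging and overlap, and left out each young library. Python 3.11.15, numpy 2.4.6 and matplotlib 3.10.9 were used. On simulated data, 2957 of 2957 merged regions and 1211 of 1211 overlaps matched bedtools 2.31.1, and 500 of 500 planted motifs were found.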

Additional observations from a re-analysis of the deposited data

How the results depend on the processing

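The counts of sites, of sites in all 4 libraries, of sites with H3K27ac and of members with a peak within 3 kb, and the aged minus young difference, were recomputed under 17 alternatives, 1 of which (the most upstream protein-coding TSS) was chosen after seeing the data. Of 69 values, 60 stayed within 1.5 times the main count or, for the difference, within the young SD. With every list cut to its 3863 strongest peaks, sites fell from 14 to 8 and the difference reversed to -2.33. With a window of 20 kb, 2 sites were in all 4 libraries. With 100 kb there were 23 sites, 11 of them with H3K27ac, and the difference was 7.33. Counting only peaks nearest to a member left 9 sites, 2 in all 4 libraries and 4 with H3K27ac. Leaving out each young library gave 12 to 14 sites, 4 to 5 in all remaining libraries and differences of 2 to 5.5. At a −log10 q of at least 2, 12 sites and 3 members with a peak within 3 kb remained. No paired analysis was possible because the aged library carries no replicate number and is alone in its group. Absence from a list means below that list's threshold, and depth is unknown.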

Other observations

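Around the strongest summits of all 18879 JunB sites, copies of TGACTCA per 1000 sites numbered 45.4 at 1 to 50 bp from the summit, 67.1 at 51 to 100 bp, 96.2 at 101 to 150 bp and 118 at 151 to 200 bp, then 92.9 at 201 to 250 bp, 38.6 at 251 to 300 bp and 15.2 at 451 to 500 bp. The copies at the sites of the plasminogen activator genes followed the same order, with 0, 1, 2 and 6 in the first 4 of these distances. A search restricted to 50 bp around the summit would thus have found none at these genes.

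Serpine2 had a second H3K27ac peak beside the one with the JunB site, 2467 bp upstream of the internal TSS, with a fold enrichment of 3.64 and no JunB site. The H3K27ac peak 34295 bp downstream of Plau had a fold enrichment of 5.15 and ranked at 6.93% of the H3K27ac list, higher than that over the Plau TSS, at 26.0%.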
